A study of Mus musculus with 13 samples.

Results

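ETS genes encode transcription factors with a shared DNA binding domain, and the 10 analysed here were those listed for the early blood and endothelial programme: Fli1, Erg, Etv2, Ets1, Ets2, Elk3, Elf1, Etv4, Etv5 and Etv6. They were found by gene symbol among the 45250 genes of the deposited expression tables, and each was present once. The libraries came from mouse ES cells. Flk-1+ cells, which contain haemangioblasts, were isolated with magnetic beads from embryoid bodies of a wild-type line (CCB, WT), an Lmo2-/- line and a Tal1-/- line, with 3 libraries per genotype. HE1, an early stage of haemogenic endothelium sorted as Tie2+ Kit+ CD41- cells after further culture of Flk-1+ cells, was represented by 2 WT and 2 Lmo2-/- libraries. The paper lists VEGF, IL-6 and conditioned medium for the culture that gave HE1, and not for the embryoid bodies. Stage and culture medium therefore cannot be told apart. No drug or inducer is given for any of the 13 libraries. Their labels give a genotype and no line, and a further Lmo2-/- line of the study, with an inducible LMO2 transgene, is not named in them. A genotype and the line that carries it cannot be told apart. The p-values measure the spread between libraries, which the paper describes as independent and as biological replicates. Whether each came from a separate differentiation is not stated.

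ETS factors recognise DNA with the core letters GGAA, and flanking bases and partner proteins separate the family members. In blood and vessel development ETV2 acts first, in Flk-1+ mesoderm, and FLI1, ERG and ETS1 later maintain endothelial genes. FLI1 and ERG also bind blood enhancers together with TAL1, LMO2, LYL1, GATA2 and RUNX1, a group known as the heptad, whereas ETV4 and ETV5 are known as targets and effectors of FGF signalling.

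The sequences upstream of Erg and Etv2 are shown because these genes encode a late and an early factor of this programme, and because Erg has several annotated starts. Each is the 250 bases before a RefSeq start on GRCm38.p6, written 5' to 3' on the gene's own strand. RefSeq promoter entries were matched for 7 of the 10 genes. Capitals mark the ETS core (GGAA, also read as TTCC), the GATA motif (AGATAA, also read as TTATCT) and the E-box bound by TAL1 dimers (CAGNTG, also read as CANCTG), each searched on both strands, with no overlap between different motifs in these windows. None of these windows overlapped an annotated exon.
Erg, the first start, chr16:95586594-95586843, minus strand: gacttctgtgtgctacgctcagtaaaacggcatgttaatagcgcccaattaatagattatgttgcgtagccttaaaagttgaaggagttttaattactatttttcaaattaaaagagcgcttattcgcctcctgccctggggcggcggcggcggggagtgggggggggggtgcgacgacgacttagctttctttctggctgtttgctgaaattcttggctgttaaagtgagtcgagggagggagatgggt
Erg, the second start, chr16:95530366-95530615, minus strand: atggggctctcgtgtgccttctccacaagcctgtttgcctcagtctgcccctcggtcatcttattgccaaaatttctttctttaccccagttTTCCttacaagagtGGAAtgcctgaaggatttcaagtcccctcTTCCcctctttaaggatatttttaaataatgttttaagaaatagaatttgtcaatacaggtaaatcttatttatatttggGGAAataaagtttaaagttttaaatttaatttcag
Erg, the third start, chr16:95459349-95459598, minus strand: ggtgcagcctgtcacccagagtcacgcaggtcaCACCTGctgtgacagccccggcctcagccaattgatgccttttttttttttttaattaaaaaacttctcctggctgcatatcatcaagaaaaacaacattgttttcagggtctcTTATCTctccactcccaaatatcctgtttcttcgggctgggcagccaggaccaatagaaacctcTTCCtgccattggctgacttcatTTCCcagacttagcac
Etv2, chr7:30635853-30636102, minus strand: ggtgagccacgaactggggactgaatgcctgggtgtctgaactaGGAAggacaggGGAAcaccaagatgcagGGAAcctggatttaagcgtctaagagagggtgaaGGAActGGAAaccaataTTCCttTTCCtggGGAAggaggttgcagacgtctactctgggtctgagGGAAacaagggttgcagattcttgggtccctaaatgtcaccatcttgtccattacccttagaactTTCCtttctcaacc
The first Erg window had 0 ETS cores, the second had 4 and the third had 2, beside a median of 3 in the 32851 RefSeq windows of this length. The third Erg window alone among these held a GATA motif and an E-box, 1 of each. A GATA motif occurred in 9.99% of all windows and an E-box in 44.8%. The Etv2 window held 10 ETS cores, and 0.192% of all windows held as many. A match is a string of letters and not evidence of binding, and no match says only that these letters are absent from the window.

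Expression was given as FPKM, the fragments assigned to a gene scaled by transcript length and library size, a unit that allows levels of different genes to be compared. The depth behind each value is unknown, and the number of genes above 0 ran from 11861 to 15641 in 12 libraries and was 9694 in the Lmo2-/- HE1 replicate 1. The steps between low values put the FPKM given by a single fragment in that library at 3.77 times the median of the other libraries, against 0.596 to 1.57 times in the others. Lmo2, the targeted gene, had 2.17 to 6.48 FPKM in Lmo2-/- and 21.6 to 30.8 in WT Flk-1+ cells. In HE1 it was 4.30 and 20.6 FPKM in the libraries labelled WT against 6.42 and 0 in those labelled Lmo2-/-, so it did not separate them and directions between HE1 genotypes rest on the labels. Tal1 was at 2.74 to 3.41 FPKM in Tal1-/- and 22.0 to 37.4 in WT Flk-1+ cells. Of the sort markers, Kdr (Flk-1) was at 68.7 FPKM or more in every library, and Tek (Tie2) and Kit were at 120.9 and 42.4 FPKM or more in HE1. Itga2b, which encodes CD41, ran from 0 to 19.8 FPKM in HE1.

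In WT Flk-1+ cells the 10 ETS genes were expressed at similar and modest levels, and in HE1 the family separated into a high and a low tier. Group means in WT Flk-1+ cells ran from 13.4 FPKM for Etv6 to 3.46 FPKM for Elf1, and each gene's libraries overlapped those of the next gene in this order. In WT HE1 Ets1 (120 FPKM) and Erg (113 FPKM) were highest and overlapped each other, followed by Fli1, Ets2, Elk3 and Etv6, between 75.8 and 48.6 FPKM, each overlapping the next. Elf1 followed at 19.5 FPKM, and Etv2, Etv4 and Etv5 lay between 1.84 and 1.46 FPKM, with a gap between the libraries above and below Elf1 on both sides. The summed FPKM of the 10 genes was 68.2 to 109 in WT Flk-1+ cells, 49.8 to 59.0 in Lmo2-/-, 48.0 to 64.1 in Tal1-/-, 505 to 508 in WT HE1 and 339 to 398 in HE1 labelled Lmo2-/-. Fli1 made up 11.8% to 14.1% of this sum in WT Flk-1+ cells, 1.57% to 2.40% in Lmo2-/- and 0.797% to 3.61% in Tal1-/-. In HE1 the share of Fli1 was 14.2% to 15.7% in WT and 10.4% to 12.6% in the libraries labelled Lmo2-/-.

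**Figure D1:**
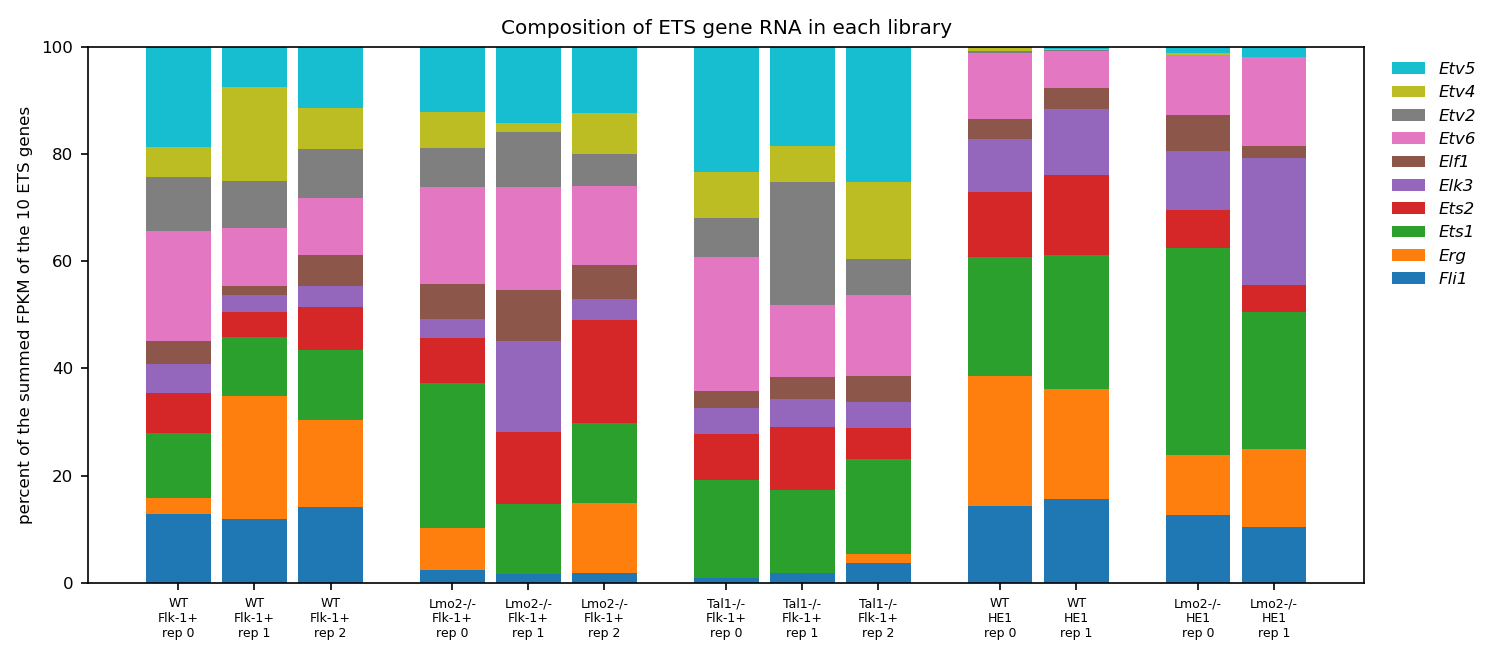
Percent of the summed FPKM of the 10 ETS genes (y axis) taken by each gene in each of the 13 libraries (x axis, rep: replicate). The blue Fli1 segment is narrow in the Lmo2-/- and Tal1-/- Flk-1+ libraries, at 0.797% to 3.61%, and the Etv2, Etv4 and Etv5 segments nearly disappear in HE1.

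Between the stages of WT cells 7 ETS genes rose and Etv5 fell. Genes were tested by limma on log2(FPKM + 1) among 13802 genes, and called at a Benjamini-Hochberg adjusted p below 0.05 with a mean FPKM above 10 in a compared group. All 10 ETS genes passed the filter on low values. Of these, 8 were called, while 6.98% of all tested genes were called (6.04% higher and 0.942% lower). The 10 genes had a median difference of 2.44 on the log2 scale and all tested genes one of 0.11. HE1 and Flk-1+ libraries did not overlap for any of the 10 genes, 7 of which were higher and 3 lower in HE1, a separation seen in 44.9% of all tested genes (27.6% higher and 17.2% lower). All 10 had an unadjusted p below 0.05, as did 23.9% of all genes.

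Fli1, an activator of endothelial and megakaryocytic genes, had 14.0, 11.5 and 9.62 FPKM in the WT Flk-1+ libraries and 71.97 and 79.65 FPKM in WT HE1. Erg, its closest relative, had 3.34, 22.4 and 11.1 FPKM in Flk-1+ cells and 123 and 104 FPKM in HE1. Both HE1 libraries were above every Flk-1+ library for these genes, and Erg varied more among Flk-1+ libraries than Fli1 did. The log2 difference was 2.61 (standard error 0.40, limma adjusted p = 0.00109) for Fli1 and 3.41 (standard error 0.80, limma adjusted p = 0.0165) for Erg. Ets1, which shares with Ets2 a regulatory domain phosphorylated by ERK kinases, had 13.2, 10.56 and 9.003 FPKM in Flk-1+ cells and 112 and 127 FPKM in HE1. Ets2 had 8.23, 4.54 and 5.47 FPKM in Flk-1+ cells and 61.6 and 76.3 FPKM in HE1. These genes rose by 3.35 (standard error 0.37, limma adjusted p = 0.000136) and 3.33 (standard error 0.47, limma adjusted p = 0.000655).

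Elk3, a partner of SRF that acts as a repressor until it is phosphorylated, had the largest difference among the 10 genes. It had 5.84, 3.09 and 2.66 FPKM in WT Flk-1+ cells and 49.6 and 62.3 FPKM in WT HE1, a log2 difference of 3.60 (standard error 0.57, limma adjusted p = 0.00148). Elf1, an ETS factor of endothelial and blood cells, rose by 2.28 (standard error 0.53, limma adjusted p = 0.0161), from 1.64 to 4.74 FPKM across the Flk-1+ libraries to 18.9 and 20.2 FPKM in HE1. The deposited locus of Elf1 also spans Wbp4 on the opposite strand, so its FPKM are uncertain. Annotated genes on the opposite strand also overlap Elk3 (Cdk17) and Etv6 (3 genes). Etv6, a repressor needed for yolk sac vessels and later for blood stem cells, rose by 1.88 (standard error 0.48, limma adjusted p = 0.0272), from 7.17 to 22.4 FPKM in Flk-1+ cells to 62.2 and 35.1 FPKM in HE1. It was the least even of the 7 genes between the HE1 libraries.

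The genes of the early and FGF-responsive branch were lower in HE1. Etv5 had 20.3, 7.20 and 7.82 FPKM in WT Flk-1+ cells and 0.762 and 2.16 FPKM in WT HE1, and it fell by 2.29 (standard error 0.48, limma adjusted p = 0.00920). Etv4 had 6.197, 17.15 and 5.20 FPKM in Flk-1+ cells and 2.61 and 0.416 FPKM in HE1. Etv2 had 10.96, 8.475 and 6.24 FPKM in Flk-1+ cells and 2.32 and 1.36 FPKM in HE1. No HE1 library reached a Flk-1+ library for either gene, but neither was called. The log2 differences were -2.04 for Etv4 (limma adjusted p = 0.0698) and -1.74 for Etv2 (limma adjusted p = 0.0660).

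**Figure D2:**
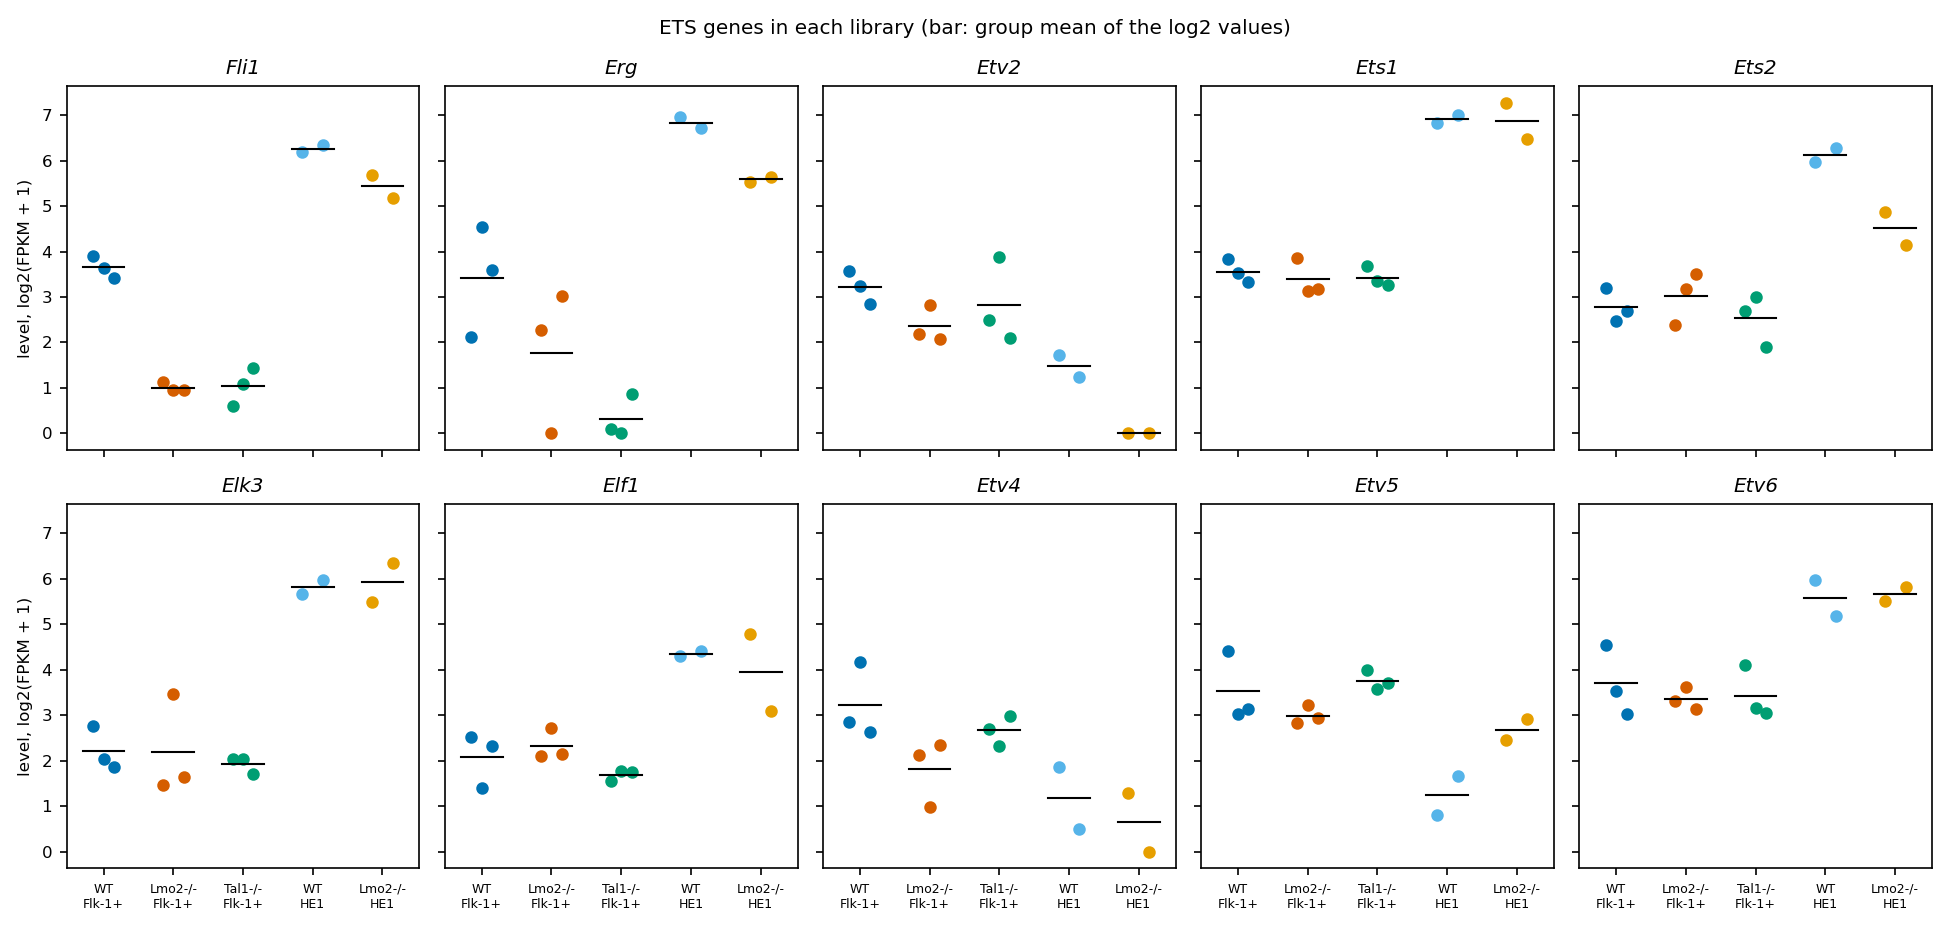
Level of each ETS gene as log2(FPKM + 1) (y axis) in each library (points), grouped by genotype and cell stage (x axis), with bars at the group means of the log2 values. Fli1 is low in the Lmo2-/- and Tal1-/- Flk-1+ libraries (0.511 to 1.73 FPKM) and high in all HE1 libraries (35.2 to 79.6 FPKM), and Etv2 is listed at 0 in both HE1 libraries labelled Lmo2-/-.

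Some of these calls rested on single libraries or on scaling. Leaving out a WT HE1 library leaves 1 in that group, so sizes and not counts are given for that step. Over the 22 alternatives, which include each library left out, differences ran from 1.40 to 2.30 for Etv6 and 1.85 to 2.59 for Elf1. They ran from 2.76 to 3.98 for Erg and from -2.92 to -1.85 for Etv5. With each library rescaled to a common median, 6 genes were called. That rescaling moved the median difference of all genes from 0.11 to -0.24, and the calls over all genes from 834 higher and 130 lower to 419 higher and 316 lower. With quantile normalization the calls over all genes were 464 higher and 260 lower. In both, each of the 7 genes remained higher in HE1 and Etv5 lower. Etv6, the weakest of the calls, had an adjusted p of 0.00322 to 0.265 across the 22 alternatives.

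Fli1, Erg, Ets1, Ets2, Elk3, Elf1 and Etv6 also rose between the stages of Lmo2-/- cells. These 7 of the 10 were called, all higher, against 19.6% of all tested genes called (17.2% higher and 2.38% lower). At an unadjusted p below 0.05 there were 8 of the 10 and 38.7% of all genes. Libraries of the stages did not overlap for 7 genes that were higher and 1 that was lower in HE1, against 47% of all genes (31.9% higher and 15.1% lower). The median difference was 1.96 for the 10 genes and 0.30 for all genes. Fli1 started from 1.20, 0.928 and 0.926 FPKM in Lmo2-/- Flk-1+ cells and reached 50.3 and 35.2 FPKM in HE1, a log2 difference of 4.42 (standard error 0.40, limma adjusted p = 2.56e-05), the largest of the 10. Erg started from 3.87, 0 and 7.06 FPKM, reached 44.9 and 49.1 FPKM, and rose by 3.82 (standard error 0.80, limma adjusted p = 0.00446). All libraries of the HE1 stage were higher than those of the Flk-1+ stage for both genes.

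Elk3 rose by 3.73 (limma adjusted p = 0.000732), from 1.76, 9.98 and 2.12 FPKM to 43.9 and 80.8 FPKM. Ets1 rose by 3.48 (limma adjusted p = 7.21e-05), from 13.5, 7.74 and 8.06 FPKM to 154 and 87.2 FPKM. The differences of Etv6, Elf1 and Ets2 were 2.31, 1.61 and 1.49 (limma adjusted p = 0.00436, 0.0408 and 0.0328). The HE1 libraries labelled Lmo2-/- were uneven for Elf1, at 26.5 and 7.59 FPKM, and its difference was 0.77 without replicate 0 and 2.45 without replicate 1. Ets2 was at 28.2 and 16.7 FPKM in them, with differences of 1.13 and 1.86 (not called without replicate 0). Of 22 alternatives, the call was lost in 14 for Elf1, 8 for Ets2 and 3 for Etv6. Etv2 had 3.57, 6.13 and 3.25 FPKM in Lmo2-/- Flk-1+ cells and was listed at 0 in both HE1 libraries, and its adjusted p was 0.00786 by limma, but no group mean was above 10 FPKM and it was not called. Etv5 had 6.07, 8.35 and 6.64 FPKM in Flk-1+ cells and 4.46 and 6.53 FPKM in HE1, which overlapped. With quantile normalization or rescaling to a common median 4 of the 10 genes were called. Those scalings moved the median of all genes from 0.30 to 0.02 and to -0.34, and the calls over all genes from 2379 higher and 328 lower to 685 higher and 563 lower and to 609 higher and 764 lower.

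Between Lmo2-/- and WT Flk-1+ cells Fli1 showed the clearest difference, although no ETS gene was called. None of the 13802 tested genes was called by limma (0%), and at an unadjusted p below 0.05 there were 307 of all genes (2.22%) and 3 of the 10 ETS genes. Fli1 was 6.25-fold lower on the FPKM + 1 scale in Lmo2-/-, with a log2 difference of -2.64 (95% interval -3.41 to -1.88, limma adjusted p = 0.0580). All 3 Lmo2-/- libraries, at 0.926 to 1.20 FPKM, were below all WT libraries, at 9.62 to 14.0 FPKM. The exact permutation test of 3 against 3 libraries gave p = 0.10 (two-sided), the smallest it allows. The adjusted p of Fli1 ran from 0.00295 to 0.743 across 22 alternatives and passed the threshold in 6 of them, among them those without Lmo2-/- HE1 replicate 0 or replicate 1.

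Etv4 and Etv2 were also apart between these genotypes. Etv4 had 3.36, 0.984 and 4.10 FPKM in Lmo2-/- and at least 5.20 FPKM in WT (log2 difference -1.40, 95% interval -2.67 to -0.13, limma adjusted p = 1). Etv2 had 3.57, 6.13 and 3.25 FPKM in Lmo2-/- and at least 6.24 FPKM in WT (log2 difference -0.86, 95% interval -1.92 to 0.21, limma adjusted p = 1). In all, 3 ETS genes were lower with no overlap, a pattern shown by 4.22% of all tested genes, while 8.21% did not overlap in either direction. Erg was at 3.87, 0 and 7.06 FPKM in Lmo2-/- against 3.34, 22.4 and 11.1 FPKM in WT, and these overlapped (log2 difference -1.65, limma adjusted p = 1). Without Lmo2-/- replicate 1, which was at 0, the Erg difference was -0.77.

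For the other 6 ETS genes the libraries of these genotypes overlapped, with log2 differences from -0.54 for Etv5 to 0.25 for Elf1. Their intervals do not exclude changes of moderate size. For Ets1, at 13.5, 7.74 and 8.06 FPKM in Lmo2-/- and 13.2, 10.56 and 9.003 FPKM in WT, the interval of the difference was -0.88 to 0.54. In bulk libraries fewer cells expressing a gene and less RNA per cell cannot be told apart. The summed FPKM of 9 cardiac markers was 31.1 to 49.6 in Lmo2-/- against 20.3 to 27.9 in WT Flk-1+ cells. Most of it was Hand2, at 11.3 to 21.7 FPKM against 5.84 to 11.03, and Myl7, at 6.24 to 23.2 against 7.54 to 11.7, which overlapped. Of 7 cardiac markers tested 5 had a positive difference, and Actc1 was at 0.851 to 4.37 FPKM against 2.79 to 4.59. That of 6 fibroblast markers was 20.8 to 28.8 against 6.50 to 14.3, mostly Col1a1, at 15.9 to 26.9 FPKM against 4.54 to 12.8 FPKM. For 9 haematopoietic markers the sums were 1.25 to 3.001 against 6.63 to 9.32, for 6 smooth muscle markers 7.56 to 14.4 against 10.4 to 17.1, and for 6 pluripotency markers 4.31 to 7.81 against 13.1 to 15.9. The haematopoietic markers Ptprc, Klf1, Hbb-bh1 and Hba-x were listed at 0 in all libraries of both genotypes. The part of these markers in the ETS differences was not tested.

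Tal1-/- Flk-1+ cells had low levels of both Fli1 and Erg. Fli1 was at 0.511, 1.13 and 1.73 FPKM and Erg at 0.0760, 0 and 0.813 FPKM, and every Tal1-/- library was below every WT library for both. The log2 differences from WT were -2.61 for Fli1 (95% interval -3.37 to -1.84, limma adjusted p = 0.0674) and -3.10 for Erg (95% interval -4.64 to -1.55, limma adjusted p = 0.268). These were the only ETS genes of the 10 with no overlap, a pattern shown by 7.4% of all tested genes in the lower direction and 12.6% in either. None of the 10 was called by limma, in which 0% of all genes were called, and 2 of the 10 and 843 of all genes (6.11%) had an unadjusted p below 0.05. The adjusted p of Fli1 ran from 0.0222 to 0.228 across 22 alternatives and passed the threshold in 9 of them, including those without Lmo2-/- Flk-1+ replicate 1, Lmo2-/- HE1 replicate 0 or Lmo2-/- HE1 replicate 1. The WT libraries are shared with the comparison of Lmo2-/- cells above.

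Etv2 was at 4.67, 13.7 and 3.26 FPKM in Tal1-/- Flk-1+ cells and overlapped WT. Ets1 was at 11.7, 9.21 and 8.56 FPKM, with a difference from WT of -0.13 (95% interval -0.84 to 0.58, limma adjusted p = 1). The differences of the other 6 genes ran from -0.55 for Etv4 to 0.23 for Etv5, and all overlapped WT. Tek, the Tie2 gene and itself an endothelial gene, was listed at 0 in all 3 libraries of this genotype, in which the summed FPKM of the 9 haematopoietic markers was 0.144 to 4.04. The sums were 12.4 to 24.9 for cardiac and 22.1 to 35.7 for fibroblast markers, the latter mostly Col1a1 at 16.2 to 30.3 FPKM. They were 3.27 to 8.85 for smooth muscle and 12.7 to 28.5 for pluripotency markers. The part of these markers was not tested.

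Set directly against each other, Lmo2-/- and Tal1-/- Flk-1+ cells had no ETS gene with a called difference. In this comparison 0 of 10 were called by limma and 0 had an unadjusted p below 0.05, while 0.0145% of all genes were called and 5.96% had an unadjusted p below 0.05. The difference of Fli1 was 0.04 (Tal1-/- minus Lmo2-/-, 95% interval -0.73 to 0.80), and that of Erg was -1.44 (95% interval -2.99 to 0.10). Etv5 was higher with no overlap in Tal1-/- (11.02 to 14.92 FPKM against 6.07 to 8.35 FPKM) and Elf1 lower (1.96 to 2.43 FPKM against 3.30 to 5.61 FPKM), where 13.3% of all genes did not overlap (6.59% higher and 6.66% lower). The intervals were -0.17 to 1.70 for Etv5 and -1.66 to 0.39 for Elf1.

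**Figure D3:**
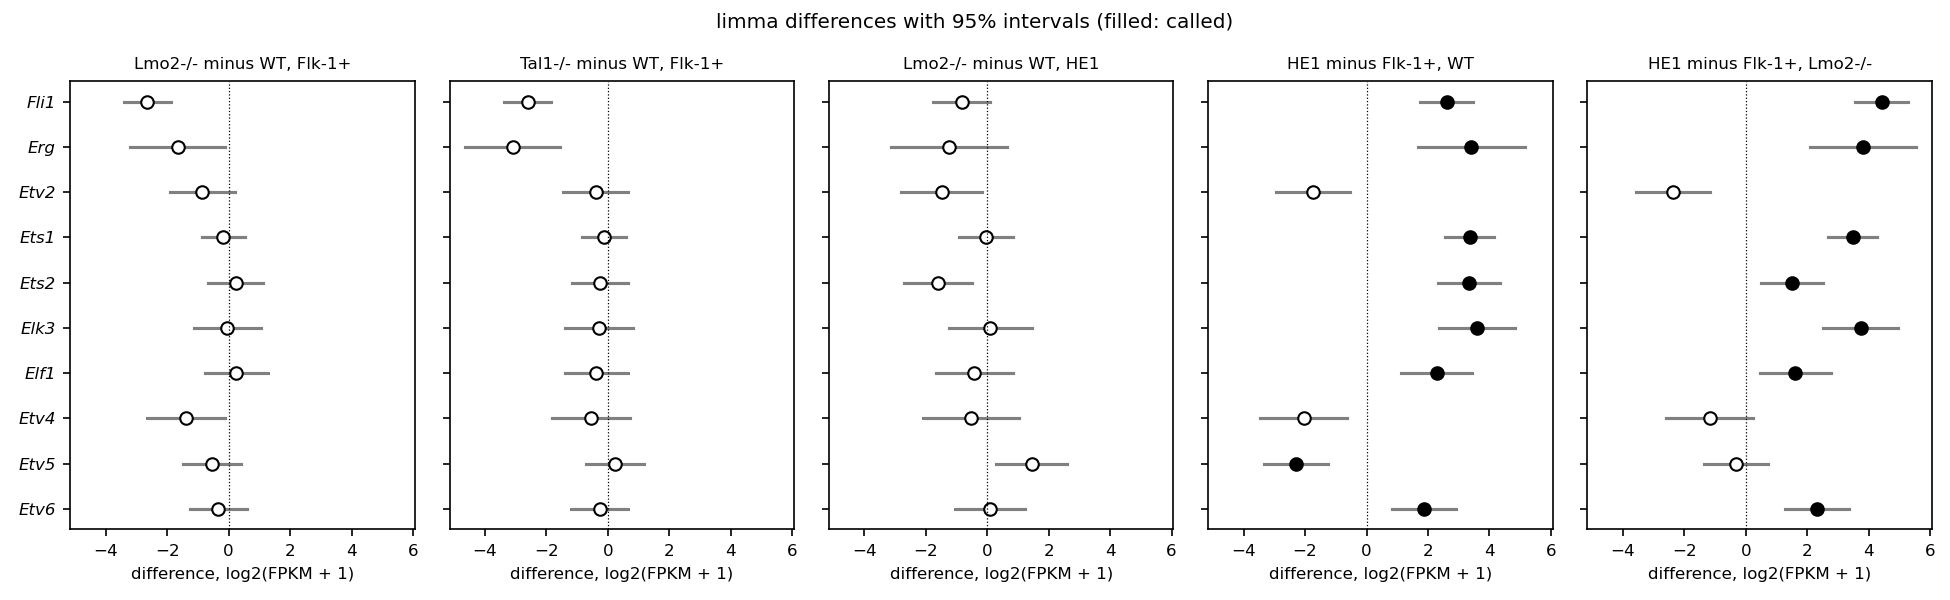
Difference of each ETS gene (x axis, log2 of FPKM + 1, first group minus second) in 5 comparisons (panels), with 95% limma intervals as lines and filled circles for called genes. In the Flk-1+ panels the Fli1 circle lies at -2.64 and -2.61 while those of Ets1 lie near 0, and in both stage panels 7 genes have filled circles above 0.

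Between the HE1 genotypes no ETS gene was called by limma, and Fli1, Erg and Ets2 had lower values in both libraries labelled Lmo2-/-. Of all tested genes 3.01% were called, and 3 of the 10 ETS genes had an unadjusted p below 0.05, as did 20.7% of all genes. Fli1 had 50.3 and 35.2 FPKM in the libraries labelled Lmo2-/- against 71.97 and 79.65 FPKM in WT (log2 difference -0.83, 95% interval -1.77 to 0.10, limma adjusted p = 0.299). Erg had 44.9 and 49.1 FPKM against 123 and 104 FPKM (log2 difference -1.25, 95% interval -3.14 to 0.64, limma adjusted p = 0.444). Ets2 had 28.2 and 16.7 FPKM against 61.6 and 76.3 FPKM, with the smallest adjusted p of the 10 (log2 difference -1.61, 95% interval -2.72 to -0.51, limma adjusted p = 0.0943). For these 3 genes both libraries labelled Lmo2-/- were below both WT libraries. Ets2 was called (limma adjusted p = 0.0326) when replicate 0 labelled Lmo2-/- was left out, a fit that rests on the shallow replicate 1 and in which 16.0% of 13585 tested genes were called.

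Etv2 was lower as well, at 0 in both libraries labelled Lmo2-/- and 2.32 and 1.36 FPKM in WT. Etv5 alone was higher with no overlap, at 4.46 and 6.53 FPKM against 0.762 and 2.16 FPKM (log2 difference 1.44, 95% interval 0.30 to 2.59, limma adjusted p = 0.145). Together 4 of the 10 genes were lower and 1 higher with no overlap, where 13.8% of all genes were lower and 25.9% higher (39.7% in either direction), and the exact permutation test of 2 against 2 libraries cannot go below 0.333. The median difference was -0.47 for the 10 genes and 0.15 for all genes, and the latter was 0.0700 with quantile normalization and -0.0504 with rescaling. Calls over all genes went from 297 higher and 118 lower to 123 and 89 and to 115 and 115. Ets1, Elk3, Elf1, Etv4 and Etv6 overlapped. Their fitted differences lay between -0.53 and 0.10, those of Elk3 and Etv6 turned from positive to negative under both other scalings, and each of the 5 changed sign without the shallow replicate 1.

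Without that library the differences were -0.58 for Fli1, -1.31 for Erg, -1.25 for Ets2 and 1.21 for Etv5, from 1 library labelled Lmo2-/- that is assumed to vary like the other groups. Smooth muscle markers had summed FPKM of 332 to 848 in the libraries labelled Lmo2-/- and 185 to 221 in WT HE1. Most of this was Acta2, at 263 and 816 FPKM against 165 and 114 FPKM. Tagln was at 59.0 and 24.1 FPKM against 50.5 and 53.7 FPKM. The sums of fibroblast markers were 175 to 755 against 29.2 to 35.7. Of these, Col1a1, Col3a1 and Postn, 3 of 5 tested, were called higher, against 3.01% of all genes called. Without replicate 1 these 3 were not called (limma adjusted p = 0.101, 0.0546 and 0.0549), and the difference of Col1a1 went from 3.69 to 2.15. For cardiac markers the sums were 10.4 to 18.4 against 19.3 to 22.6, and for haematopoietic markers 0 to 19.8 against 12.7 to 15.4. Ptprc, Gata1, Hba-x, Spn and Nfe2 were listed at 0 in all HE1 libraries. The haematopoietic sum of the libraries labelled Lmo2-/- was that of Itga2b alone, at 19.8 and 0 FPKM. Pluripotency markers summed to at most 0.533 in any HE1 library. Their part in the ETS differences was not tested.

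The difference between the genotypes in the step to HE1 was tested as an interaction, with the step in WT subtracted from that in Lmo2-/-. No ETS gene was called by limma, where 0.348% of all genes were, and 3 of the 10 and 12.1% of all genes had an unadjusted p below 0.05. The interaction was 1.81 for Fli1 (95% interval 0.61 to 3.02, limma adjusted p = 0.201), 1.98 for Etv5 (95% interval 0.50 to 3.46, limma adjusted p = 0.254) and -1.84 for Ets2 (95% interval -3.27 to -0.41, limma adjusted p = 0.274). A larger step of Fli1 in Lmo2-/- cells, from near 1 FPKM, was thus not called as different from that in WT.

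Fli1 and Erg each lie beside another ETS gene. Fli1 occupies chr9:32422204-32542861 on the minus strand of GRCm38, and Ets1 starts 93.4 kb away at chr9:32636221-32757820 on the plus strand, with no protein-coding gene annotated between them. Erg occupies chr16:95359169-95586593 on the minus strand and Ets2 lies 115 kb away at chr16:95702075-95721051 on the plus strand, with 0 annotated genes between them. In both pairs the neighbours are transcribed away from each other. An opposite-strand gene overlaps Fli1 and another overlaps Ets1. The ratio within a library does not depend on the scaling of that library beyond the added FPKM of 1.

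The ratio of Fli1 to Ets1 was even among WT Flk-1+ libraries and lower in both mutants. The log2 ratio was 0.08, 0.11 and 0.09 in WT, -2.72, -2.18 and -2.23 in Lmo2-/- and -3.08, -2.26 and -1.81 in Tal1-/- Flk-1+ cells. Every mutant library was below every WT library, by -2.47 and -2.48 on average (two-sided p = 0.10 for each by exact permutation, which can go no lower). In HE1 it was -0.64 and -0.67 in WT and -1.59 and -1.28 in the libraries labelled Lmo2-/-, again without overlap (two-sided p = 0.333 by exact permutation, which can go no lower). From Flk-1+ cells to HE1 the ratio was thus lower by 0.75 in WT on average and higher by 0.94 in Lmo2-/-. Fli1 was near 1 FPKM in both mutants at the Flk-1+ stage, where the added FPKM of 1 makes the ratio less negative. The sizes of the differences from these libraries depend on it.

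The Erg to Ets2 ratio was uneven. It was -1.09, 2.08 and 0.90 in WT Flk-1+ cells, -0.09, -3.17 and -0.49 in Lmo2-/- and -2.59, -2.998 and -1.04 in Tal1-/-. Both mutants overlapped WT (exact permutation tests, two-sided, p = 0.30 and 0.20). In HE1 the ratio was 0.98 and 0.44 in WT and 0.653 and 1.503 in the libraries labelled Lmo2-/-, and these overlapped.

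**Figure D4:**
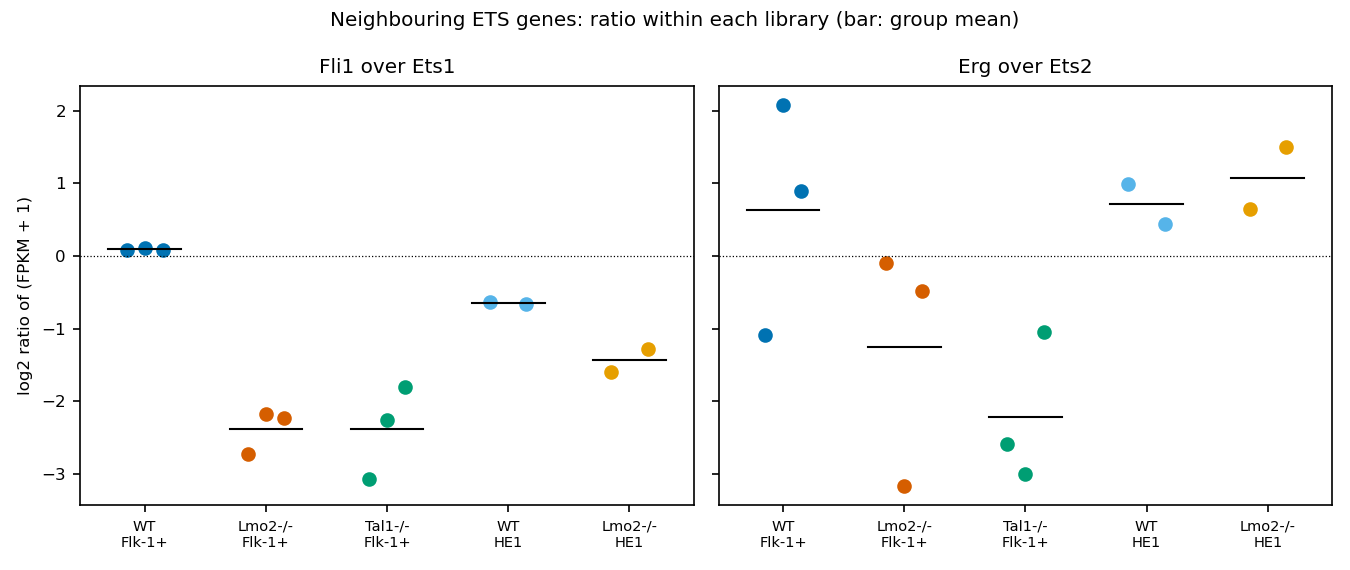
Log2 ratio of (FPKM + 1) of Fli1 over Ets1 (left) and of Erg over Ets2 (right) within each library (points), by group (x axis), with bars at group means. Fli1 over Ets1 lies at 0.08 to 0.11 in WT Flk-1+ cells and at -1.81 or lower in both mutants, whereas the Erg over Ets2 points of the mutants overlap those of WT at the same stage.

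Across the 13 libraries Fli1 varied most like other genes that were high in HE1. Among 7575 genes with a mean FPKM of at least 5, the highest Pearson correlations with Fli1 on the log2 scale were those of the locus of Mir5129 and Zeb2 (0.963), Adgrl4 (0.956), an endothelial adhesion receptor, and Frmd4b (0.953). For Erg they were Slc43a3 (0.940), Mast4 (0.921) and Iqgap2 (0.919), and for Etv2 Stmn2 (0.893), the locus of the host gene Snhg12 and its small RNAs (0.885) and D430041D05Rik (0.880). Within the family Fli1 was closest to Erg (0.911), followed by Ets1 (0.872), and Etv2 was closest to Etv4 (0.690). These values describe 13 libraries that fall into 2 stages and share depth and stage, and they carry no test.

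All 16 further genes of the family were in the tables and 12 passed the filter. In WT 2 of the 12 were called between Flk-1+ cells and HE1, against 6.98% of all genes, Elf4 by 2.04 (limma adjusted p = 0.0257) and Elk4 by 1.88 (limma adjusted p = 0.00339), both higher, and the median difference was -0.18. In Lmo2-/- cells 4 were called higher, against 19.6% of all genes called and 17.2% called higher, led by Elf4 (2.78), Elf2 (1.70) and Elk4 (1.51). None was called between genotypes by limma. An unadjusted p below 0.05 was found for 0 in Lmo2-/- and 2 in Tal1-/- Flk-1+ cells, 1 in HE1 and 0 for the interaction. Of all genes 2.22%, 6.11%, 20.7% and 12.1% had such a p in these comparisons. Spi1, which encodes the blood factor PU.1, was listed at 0 in all HE1 libraries and did not exceed 3.59 FPKM in any Flk-1+ library.

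The genes of the partners of FLI1 and ERG in the heptad had few calls. Of Gata2, Runx1, Tal1, Lyl1 and Lmo2, all 5 tested, 0 were called by limma between the WT stages, where 6.98% of all genes were. There 1, Lyl1, had an unadjusted p below 0.05, as did 23.9% of all genes. Only Tal1 was called between the stages of Lmo2-/- cells (2.203, limma adjusted p = 0.00915), where 19.6% of all genes were. All 5 had negative differences in Lmo2-/- Flk-1+ cells (median -1.26) and in Tal1-/- Flk-1+ cells (median -2.84). In each 4 had an unadjusted p below 0.05 and 0 were called by limma, and Lmo2 and Tal1 are the targeted genes. Of all genes 2.22% and 6.11% had such a p. In HE1 between genotypes 0 were called by limma and 1, again Lyl1, had an unadjusted p below 0.05, as did 20.7% of all genes. For the interaction the counts were 0 and 3, where 12.1% of all genes had such a p. Lyl1, a close relative of Tal1, also had an adjusted p below 0.05 by limma between the WT stages and between the HE1 genotypes. It was not called because no group mean was above 10 FPKM. It had at most 0.999 FPKM in any Flk-1+ library, 4.49 and 5.01 FPKM in WT HE1, and 0.164 and 0 FPKM in the libraries labelled Lmo2-/-. Its log2 difference was 1.97 between the WT stages (limma adjusted p = 0.00579) and -2.41 between the HE1 genotypes (limma adjusted p = 0.00753, and 0.0529 without replicate 1).

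Endothelial genes, a class whose enhancers commonly carry ETS sites, rose between stages in both genotypes. Of 25 listed genes, 24 were tested, and in WT 16 were called higher in HE1 and 0 lower, led by Cdh5 (VE-cadherin; 6.65, limma adjusted p = 4.56e-06), Tek (5.71, limma adjusted p = 7.83e-06) and Pecam1 (5.58, limma adjusted p = 0.000154). Of all tested genes 6.04% were called higher in that comparison. In Lmo2-/- cells 11 of the 24 rose and 0 fell, where 17.2% of all tested genes were called higher, and Cdh5 (6.97), Tek (6.55) and Pecam1 (5.52) again led. Emcn and Dll4 in WT and Dll4, Esam and Nos3 in Lmo2-/- cells had adjusted p below 0.05 by limma with no group mean above 10 FPKM, and were not called. Tek and Kdr of this list encode proteins used in the sorts. The median difference of the list was 2.98 in WT and 2.11 in Lmo2-/- cells. Between genotypes in Flk-1+ cells 0 were called by limma, with 1 at an unadjusted p below 0.05 in Lmo2-/- and 9 in Tal1-/-. Of all genes 2.22% and 6.11% had such a p. In HE1 2 of the 24 were called, both lower in the libraries labelled Lmo2-/-, where 3.01% of all genes were called in either direction. Sox18, a SOXF factor, had a log2 difference of -3.43 (limma adjusted p = 0.0133). That of Nos3, endothelial nitric oxide synthase, was -2.12 (limma adjusted p = 0.0218). Without the shallow replicate 1 their adjusted p was 0.0735 and 0.0942 by limma, and over 23 alternatives it ran from 0.000388 to 0.503 and from 0.00982 to 0.301. Emcn, which encodes endomucin of the endothelial surface, had a limma adjusted p of 0.00069 between the HE1 genotypes, and up to 0.295 over 20 alternatives. It was not called because no group mean was above 10 FPKM. It had 7.84 and 8.02 FPKM in WT HE1 and was listed at 0 in both libraries labelled Lmo2-/- and in all Flk-1+ libraries. Its interaction of genotype and stage had an adjusted p of 0.0105 by limma, and up to 0.0539 over 20 alternatives. Values at 0 leave almost no spread within the groups of this gene, so its p-values are uncertain.

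Genes of FGF signalling, which were ligand genes, the receptor gene Fgfr1 and response genes, had calls in both stage comparisons and between the HE1 genotypes. Of 13 such genes, 2 were called lower in HE1 between the stages of WT cells, against 0.942% of all genes. The ligand gene Fgf3 fell by 3.90 (limma adjusted p = 0.000388) and the receptor antagonist gene Il17rd by 1.90 (limma adjusted p = 0.00700). In the HE1 libraries labelled Lmo2-/- 3 were called higher than in WT, where 3.01% of all genes were called in either direction. Spry2 was higher by 2.87 (limma adjusted p = 0.0212), Il17rd by 2.56 (limma adjusted p = 0.00516) and Spry1 by 2.41 (limma adjusted p = 0.0213). Il17rd had 4.79 and 2.52 FPKM in WT HE1 and 26.5 and 24.6 FPKM in the libraries labelled Lmo2-/-. Its interaction of genotype and stage was called (3.15, limma adjusted p = 0.0262), but not without the shallow replicate 1 (limma adjusted p = 0.0679). The adjusted p of Spry2 without that library was 0.128 by limma. In Lmo2-/- cells Spry1 (2.09), Spred2 (1.47) and Il17rd (1.25) rose between stages, where 19.6% of all genes were called. Without replicate 1 the adjusted p by limma was 0.0105 for Spry1, 0.135 for Spred2 and 0.0797 for Il17rd. The last 2 were called in 16 and 14 of 23 alternatives, over which their differences fell as low as 0.44 and 0.30. Spry2 between the WT stages (limma adjusted p = 0.0392, lower in HE1) and Fgf3 between the HE1 genotypes (limma adjusted p = 0.0176, higher in those labelled Lmo2-/-, and 0.0999 without replicate 1) were not called because no group mean was above 10 FPKM. Between genotypes in Flk-1+ cells 0 of the 13 were called by limma, with 2 at an unadjusted p below 0.05 in Lmo2-/- and 5 in Tal1-/-. Of all genes 2.22% and 6.11% had such a p.

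The immediate early genes driven by SRF and ELK factors showed 1 call in each stage comparison. Of 8 listed genes 7 were tested, and Egr1 rose in WT (2.18, limma adjusted p = 0.0381) and Mcl1 in Lmo2-/- cells (1.56, limma adjusted p = 0.00915), where 6.98% and 19.6% of all genes were called. Fosb in WT had an adjusted p of 0.0344 by limma with no group mean above 10 FPKM. The adjusted p of Egr1 ran from 0.00271 to 0.181 over 23 alternatives, of which 9 called it. In the genotype comparisons 0 were called by limma, with 0 at an unadjusted p below 0.05 in Lmo2-/- and 2 in Tal1-/- Flk-1+ cells and 2 in HE1. Of all genes 2.22%, 6.11% and 20.7% had such a p in these comparisons. Of 6 genes listed as inputs or partners of Etv2, 4 were in the tables (Mesp1, Foxc1, Vegfa and Creb1), and 0 were called by limma in any comparison. In each stage comparison 1, Mesp1, had an unadjusted p below 0.05, as did 23.9% of all genes in WT and 38.7% in Lmo2-/- cells. Between each mutant and WT 0 had such a p. Mesp1, a mesoderm factor upstream of Etv2, was at 1.12 to 6.80 FPKM in Flk-1+ cells and listed at 0 in all 4 HE1 libraries. Its adjusted p by limma was 0.0104 between the WT stages and 0.0040 between those of Lmo2-/- cells, and it was not called because no group mean was above 10 FPKM.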

How the data were processed

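RNAseq was analysed for 3 libraries of each Flk-1+ genotype and 2 of each HE1 genotype. Poly(A)-selected, strand-specific paired-end reads were aligned by the authors with TopHat 2.0.9 to GRCm38, and transcripts were assembled with Cufflinks 2.0.0. The authors deposited FPKM for each library from Cuffnorm, which were used for every value, and FPKM for each condition with replicates pooled, which were used for gene names. Whether multi-mapping reads were shared between related genes is not given in the sources used here. The deposited table of the authors' own comparisons holds Cuffdiff fold changes and p-values and was not used. All per-sample columns were used. Fragment counts are not given, so no counting interval is printed. GEO lists 1 record per group, and the library columns were assigned to it by genotype and stage in their names.

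A single limma model (version 3.58.1, R 4.3.3), with a term for each group and a variance trend, was fitted to log2(FPKM + 1) in the 13 libraries together. It covered the 13802 genes that reached 1 FPKM in 2 or more libraries and whose locus exceeded 200 bp. All p-values were two-sided, with Benjamini-Hochberg adjustment across every gene in the fit. Fold changes on this scale understate changes of low genes. Single values had an exact permutation test. The fit was first tested on simulated data, in which 200 genes were changed by 2 on the log2 scale. It called 52% to 53.5% of these between Flk-1+ genotypes and 27% between HE1 genotypes. Between stages it called 49.5% in WT and 40.5% in Lmo2-/-. In each comparison 2 to 5 unchanged genes were called. Figures and other steps used Python 3.11.15 with numpy 2.4.6, pandas 2.3.3 and matplotlib 3.10.9. Positions are from GENCODE and promoters from RefSeq, both on GRCm38.

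The ETS genes, the gene lists, the markers and the tests were chosen with earlier results of these data known. Named beside the ETS genes were the targeted genes, the sort markers, the 3 genes most correlated with Fli1, Erg and Etv2, and from each list up to 3 called genes per direction; Spi1, Mesp1 and list genes with an adjusted p below 0.05 but no group mean above 10 FPKM were named after their values were seen. Alternatives were another pseudocount, other filters, no FPKM criterion, quantile normalization, rescaling to a common median, fits of the compared groups alone, no trend, array weights, a replicate block and each library left out. ChIPseq and DNaseI data were not analysed here.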

Additional observations from a re-analysis of the deposited data

How the results depend on the processing

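Of 15 called log2 differences of ETS genes, tested under 330 combinations with an alternative, 284 stayed called, 46 lost the call and 0 changed sign. The cause of any change was not tested. In Lmo2-/- Flk-1+ cells 1 ETS gene, Fli1, was called with the filter of 10 FPKM, quantile normalization, no trend or array weights. It was the only gene called in each, of 8810 tested genes with that filter and 13802 with the others. In Tal1-/- Flk-1+ cells Fli1 was the ETS gene called with a pseudocount of 0.1, no filter or the filter of 10 FPKM. The same held with quantile normalization, rescaling or array weights. In this order 2, 1, 1, 5, 2 and 15 of all tested genes were called. Fli1 was also called there without Lmo2-/- Flk-1+ replicate 1, where 2 of 13692 genes were. Between the HE1 genotypes the difference of Ets2 ran from -2.07 to -1.25 over the 22 alternatives. A left-out HE1 library leaves 1 in its group. From WT Flk-1+ cells to HE1 5 were called with the groups compared alone and 4 to 8 with libraries left out. With the groups alone, 629 of all 13802 tested genes were called there, against 964 in the fit of all 13 libraries. In Lmo2-/- cells 4 were called with quantile normalization, with rescaling and with the groups alone, and 3 with array weights. The calls over all 13802 tested genes were 1248, 1373, 1109 and 976 in this order, against 2707 without these alternatives. A fit of the groups alone has fewer libraries, and the HE1 genotypes then gave 0 calls over all genes by limma, with 1453 at an unadjusted p below 0.05.

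Replicate numbers in the column names showed no strong pairing of the Flk-1+ libraries, and HE1 was not examined. In Flk-1+ cells the deviations of libraries with equal numbers correlated at -0.184 to -0.0147 between WT and Lmo2-/- and at 0.0741 to 0.169 between WT and Tal1-/-. With the replicate block, the ETS genes called from Lmo2-/- Flk-1+ cells to HE1 numbered 5, as Ets2 (1.45) and Elf1 (1.63) were no longer called. Of all 13802 tested genes 2189 were called in that comparison with the block, against 2707 without it. No other call of an ETS gene changed.

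Differences that changed sign were at most 0.67 in size. With quantile normalization and with rescaling, Elk3 between HE1 genotypes became -0.47 and -0.40 and Etv6 -0.43 and -0.40, Ets1 between the mutants -0.0101 and -0.00788, and the interactions of Erg -0.0478 and -0.0196, of Ets1 -0.45 and -0.37, of Elk3 -0.29 and -0.35 and of Etv6 -0.10 and -0.0589. With array weights Etv6 in Tal1-/- became 0.0263 and Elk3 between the mutants 0.0174. With libraries left out, the ranges in Lmo2-/- Flk-1+ cells were -0.0174 to 0.54 for Ets2, -0.67 to 0.32 for Elk3, -0.0913 to 0.47 for Elf1 and -0.67 to 0.0844 for Etv6. In Tal1-/- they were -0.25 to 1.23e-05 for Ets1, -0.49 to 0.0592 for Ets2, -0.0140 to 0.67 for Etv5 and -0.60 to 0.16 for Etv6. Between the mutants they were -0.17 to 0.26 for Fli1, -0.0740 to 0.82 for Etv2, -0.0921 to 0.27 for Ets1, -0.62 to 0.38 for Elk3 and -0.26 to 0.27 for Etv6. In HE1 they were -0.45 to 0.36 for Ets1, -0.33 to 0.53 for Elk3, -1.26 to 0.42 for Elf1, -1.21 to 0.14 for Etv4 and -0.31 to 0.50 for Etv6. For the interaction they were -0.48 to 1.06 for Erg, -0.28 to 0.53 for Ets1, -0.30 to 0.77 for Elk3 and -1.51 to 0.17 for Elf1. Unknown depth limits low genes most, and in HE1 the lone remaining library of a group is assumed to vary like the others.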
